A study of Mus musculus with 6 samples.

Results

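Gene expression in the prelimbic cortex (PL) of mice that had gone through a full schedule of long and then short restraint was compared with that of naive mice, on 4 of the 6 arrays of the study. The 4 arrays were chosen by their labels alone, not by their values. In the CRST+RS5 group, mice were restrained for 2 h a day for 14 days (chronic restraint stress, CRST) and afterwards for 5 min a day for another 14 days (RS5). CON mice were naive and had neither treatment. The remaining arrays, of the CRST group, came from mice that had the 2 h restraint alone and are given here only beside the other values. All were male C57BL/6 mice, 3 months old by the labels, and the PL was collected on post-stress day 22. Each array held RNA pooled from 6 to 7 animals, with 2 pools a group, so a replicate is a pool and the spread between single animals was not measured. No array held mice given the 5 min restraint without the 2 h restraint before it, and the hour of collection of each pool is not given in the sources used here.

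The PL is the part of the rodent medial prefrontal cortex that sends output to the amygdala, the bed nucleus of the stria terminalis and other regions that control stress hormones. Its pyramidal neurons switch on immediate early genes within minutes of strong firing, through calcium and ERK signaling to transcription factors such as CREB, and the transcripts decay within hours, so their level reflects recent activity. Cortical tissue also holds glia, vessels and, at its surface, the meninges, whose fibroblasts secrete matrix proteins and carry transporters. The samples were bulk tissue, in which fewer cells of a type and less RNA per cell cannot be told apart.

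Of 25697 probes on the array, 12847 were tested, those with a detection p-value under 0.05 on both arrays of at least 1 of the 2 groups. Signals below are log2 values after quantile normalization, and each fold change is CRST+RS5 over CON. By fold alone, 334 probes were higher by at least 1.2-fold in CRST+RS5 (2.6% of those tested) and 172 were lower by as much (1.34%). Both CRST+RS5 arrays lay above both CON arrays for 2293 probes (17.8%) and below them for 2882 (22.4%). No probe passed an adjusted p of 0.05 by limma (0.0%), the smallest adjusted p was 0.338, and 1041 probes had an unadjusted p under 0.05. Every gene difference reported below therefore missed that threshold over all probes, and the values describe these 4 pools. The probes with names were those the study had listed from the same arrays, for CRST against CON or for CRST+RS5 against CRST, so 659 of the 12847 tested probes have a gene name and counts over named genes are not independent of the arrays. One array stood apart: on CRST+RS5 replicate 2, 53 detected probes were at least 2-fold above every other array, and results that rest on it are given with and without it. Of the probes past 1.2-fold, 204 of the 334 higher and 69 of the 172 lower had a name. These were 31.0% and 10.5% of the named and tested probes, which is more than over all tested probes and applies to every list of named genes below.

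The named genes with the largest differences were of distinct kinds. The lower ones included activity-induced genes of neurons (Arc, Fos, Npas4, Fosb and Dusp1). The higher ones included genes of the meninges (Slc47a1, Slc13a4, Ogn, Dcn, Ptgds and Slc22a6). Among named genes without overlap of CRST+RS5 and CON, Dynll2 had the largest decrease (log2 fold change -1.13) and Sphk1 the largest increase (1.62). Sphk1, which makes sphingosine 1-phosphate, Scd1, a fatty acid desaturase, Wfdc2, a secreted protein of epithelia, and C1ql2, a synaptic protein of the complement C1q family, completed the 10 largest increases. For Wfdc2 and C1ql2, 1 pool carried most of the difference. Wfdc2 had signals of 7.99 and 10.61 on the CRST+RS5 arrays and 7.75 and 7.86 on the CON arrays, and its log2 fold change of 1.50 was 0.19 without CRST+RS5 replicate 2 and 2.80 without the other CRST+RS5 array. C1ql2 had signals of 10.59 and 9.28 in CRST+RS5 and 8.98 and 8.94 in CON, and its log2 fold change of 0.98 was 0.33 without CRST+RS5 replicate 1 and 1.63 without the other. Sphk1 read 9.91 and 11.48 in CRST+RS5 against 8.93 and 9.21 in CON. Both of its CRST+RS5 pools were above both CON pools, but its log2 fold change of 1.62 was 0.84 without CRST+RS5 replicate 2. Scd1 read 11.84 and 12.98 in CRST+RS5 against 11.34 and 11.62 in CON, and its log2 fold change of 0.93 was 0.36 without that same array and 1.50 without the other CRST+RS5 array.

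**Figure D1:**
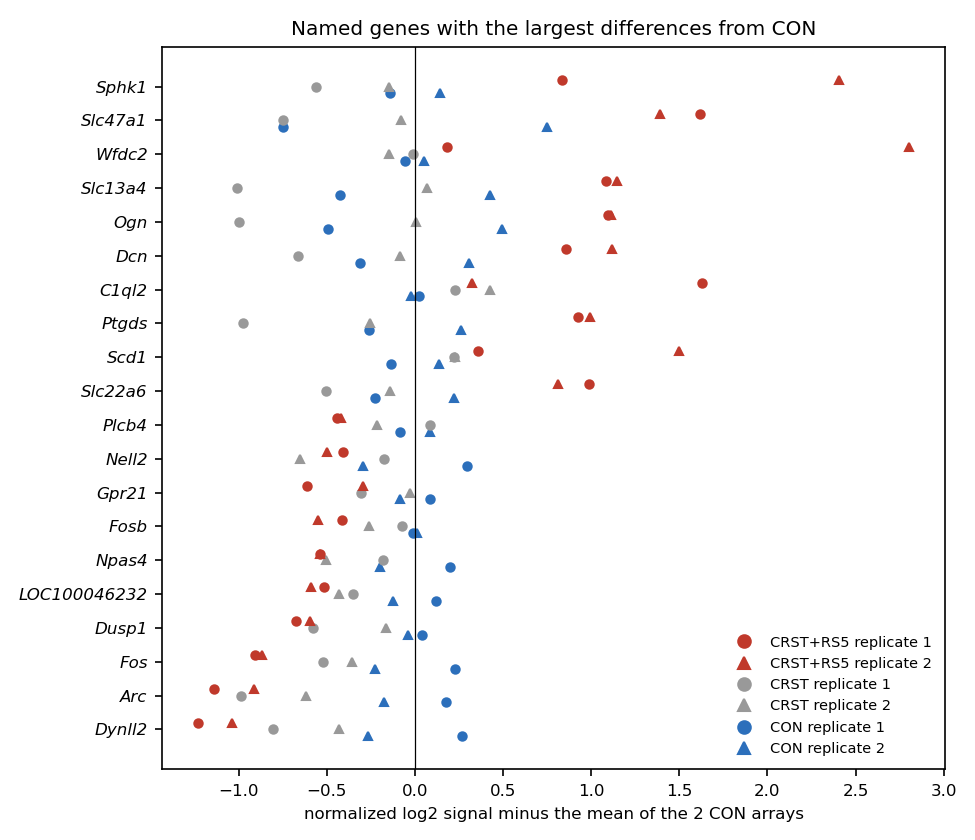
The 20 named genes with the largest differences from CON among those detected on all 4 arrays with no overlap of CRST+RS5 and CON. The horizontal axis is the normalized log2 signal of each array minus the mean of the CON arrays, with CRST+RS5 in red, CRST in grey and CON in blue, circles for replicate 1 and triangles for replicate 2; Dynll2 (log2 fold change -1.13) is at the bottom, Sphk1 (1.62) at the top, and Wfdc2 and C1ql2 show 1 CRST+RS5 array far from the other.

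The immediate early genes had the lowest median of the gene lists with at least 3 tested probes. Promoters of 3 of them and of 1 clock gene are shown here because their windows held the motif searched for, which not all windows of these groups did. They are RefSeq sequences of build GRCm38.p6, each running from 250 bases before the transcription start to 50 bases after it, 5′ to 3′ on the gene's own strand. Capitals in Fos, Npas4 and Dusp1 mark TGACGT on either strand (read as ACGTCA on the other), the core of the cAMP response element that CREB binds.
Fos promoter, chr12:85473640-85473939, plus strand: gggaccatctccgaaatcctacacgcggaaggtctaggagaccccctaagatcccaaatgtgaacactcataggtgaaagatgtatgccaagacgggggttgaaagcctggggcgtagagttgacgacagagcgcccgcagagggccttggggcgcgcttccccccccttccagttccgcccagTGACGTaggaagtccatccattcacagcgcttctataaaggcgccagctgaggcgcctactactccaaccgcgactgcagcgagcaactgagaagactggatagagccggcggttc
Npas4 promoter, chr19:4989922-4990221, minus strand: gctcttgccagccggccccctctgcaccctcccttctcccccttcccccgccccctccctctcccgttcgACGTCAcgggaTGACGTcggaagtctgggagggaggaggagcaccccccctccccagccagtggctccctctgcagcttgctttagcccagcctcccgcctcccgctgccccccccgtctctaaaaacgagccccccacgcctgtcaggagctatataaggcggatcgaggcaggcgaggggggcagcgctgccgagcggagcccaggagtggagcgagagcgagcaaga
Dusp1 promoter, chr17:26508423-26508722, minus strand: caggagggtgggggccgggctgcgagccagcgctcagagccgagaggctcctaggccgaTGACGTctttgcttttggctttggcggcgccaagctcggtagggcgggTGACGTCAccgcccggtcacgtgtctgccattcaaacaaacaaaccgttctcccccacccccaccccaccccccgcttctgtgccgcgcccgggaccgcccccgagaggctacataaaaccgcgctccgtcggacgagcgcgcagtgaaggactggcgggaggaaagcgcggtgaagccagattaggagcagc
Capitals in Ciart mark the E-box CACGTG, the element bound by CLOCK and BMAL1, which reads alike on both strands.
Ciart promoter, chr3:95882179-95882478, minus strand: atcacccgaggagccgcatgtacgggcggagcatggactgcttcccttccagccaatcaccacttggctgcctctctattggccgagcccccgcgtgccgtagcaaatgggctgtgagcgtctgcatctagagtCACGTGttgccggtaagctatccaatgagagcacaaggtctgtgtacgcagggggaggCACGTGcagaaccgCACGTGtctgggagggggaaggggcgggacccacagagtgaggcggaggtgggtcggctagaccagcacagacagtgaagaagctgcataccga
Fos held 1 stretch of TGACGT, starting 66 bases before the start site. Npas4 and Dusp1 held 2 each, and in the windows of Fosb, Dusp6 and Inhba none was found. Egr2 is listed with several starts, and some of their windows held it. Over all 32851 promoter windows of the same length, 7.51% held TGACGT. Ciart held 3 stretches of CACGTG, the windows of Dbp and Nr1d1 held none, and 7.15% of all windows held it. Both motifs contain the letters ACGT, and Dusp1 holds CACGTG apart from its capitals. These matches describe the letters in the windows and were not measured as binding in these mice.

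Arc, which codes for a protein that moves AMPA receptors out of synapses, had signals of 10.76 and 10.98 on the CRST+RS5 arrays, 10.91 and 11.28 on the CRST arrays and 12.07 and 11.72 on the CON arrays. Both CRST+RS5 pools were below both CON pools, with a log2 fold change of -1.03 ± 0.15 (SE, n = 2 pools a group; limma adjusted p = 0.338). Fos, the transcription factor subunit most used as a mark of active neurons, had signals of 8.92 and 8.96 in CRST+RS5, 9.31 and 9.47 in CRST and 10.06 and 9.60 in CON. Its CRST+RS5 pools lay almost together and were the lowest of the 6, and its log2 fold change was -0.89 ± 0.14 (SE; limma adjusted p = 0.338). For neither gene did leaving out any 1 of the 4 arrays give a smaller decrease than -0.66 on the log2 scale.

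Npas4, a transcription factor that neurons induce by calcium entry, read 8.65 on both CRST+RS5 arrays, 9.01 and 8.69 on the CRST arrays and 9.39 and 8.99 on the CON arrays. Its log2 fold change was -0.54, and -0.34 without CON replicate 1, the higher of the naive pools. Fosb, a partner of Jun whose truncated product builds up under repeated stimulation, read 8.29 and 8.16 in CRST+RS5 against 8.70 and 8.72 in CON, with a log2 fold change of -0.48. Egr2, a zinc finger factor of the Egr family, read 8.22 and 8.26 in CRST+RS5 against 8.65 and 8.59 in CON. In each of these 3 genes the groups did not overlap.

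Of the 38 genes on the list of immediate early genes, 11 had a named and tested probe. Among them 8 were lower by at least 1.2-fold, 1 was higher and 2 lay within that range, and the median log2 fold change was -0.39, against -0.01 over all tested probes, of which 1.34% were lower by as much, as were 10.5% of the named ones. Without each array in turn, 6 to 8 were lower by that much. The member higher by 1.2-fold was Klf2, which endothelial cells also express, with CRST+RS5 and CON arrays that overlapped (9.15 and 9.03 against 8.48 and 9.15) and a log2 fold change of 0.27 that was -0.07 without CON replicate 1, 0.21 without CRST+RS5 replicate 1 and 0.60 without CON replicate 2. Inhba, an activin subunit, and Nptx2, a secreted pentraxin of excitatory synapses, had log2 fold changes of -0.28 and -0.27, and for Nptx2 the groups overlapped. Without CRST+RS5 replicate 2 they were at -0.16 and -0.11, without CON replicate 1 at -0.21 and -0.15, and Nptx2 was at -0.42 without CRST+RS5 replicate 1. The list's median was -0.41 and -0.42 on the CRST+RS5 arrays, against 0.04 and -0.04 on the CON arrays, each relative to the CON mean. The CRST arrays had medians of -0.19 and -0.34.

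The largest decrease of any named gene was not on this list. Dynll2, a light chain of dynein that also binds myosin V and scaffold proteins of the synapse, had signals of 9.23 and 9.43 in CRST+RS5, 9.66 and 10.03 in CRST and 10.73 and 10.20 in CON. That is a log2 fold change of -1.13 ± 0.18 (SE; limma adjusted p = 0.338), and -0.87 without CON replicate 1. Other named genes at the low end were Gpr21, an orphan receptor (-0.45 on the log2 scale, and -0.30 without CRST+RS5 replicate 1), Nell2, a secreted neuronal protein (-0.45), and Plcb4, a phospholipase C downstream of metabotropic receptors (-0.43). Nell2 rested on 1 naive pool, with signals of 9.88 and 9.79 in CRST+RS5 against 10.59 and 9.99 in CON, and its log2 fold change was -0.16 without CON replicate 1 and -0.75 without CON replicate 2.

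The dual specificity phosphatases remove phosphate from MAP kinases and several are themselves induced by ERK. Dusp1, which acts on p38, JNK and ERK and is also induced by glucocorticoids, had signals of 11.53 and 11.61 in CRST+RS5, 11.63 and 12.04 in CRST and 12.24 and 12.17 in CON. The naive pools were the highest of the 6, and the log2 fold change of -0.63 ± 0.13 (SE; limma adjusted p = 0.515) stayed between -0.67 and -0.59 when each array was left out. Dusp1 was the only gene of the study's RT-PCR panel with a named and tested probe. Dusp16, which acts on JNK and p38, read 8.82 on both CRST+RS5 arrays against 9.10 and 9.11 in CON, while its CRST arrays read 9.07 and 9.15. Dusp6, the cytoplasmic phosphatase of ERK, read 12.47 and 12.41 in CRST+RS5 against 12.68 and 12.66 in CON. All 4 tested members of this list had negative log2 fold changes, from -0.63 to -0.17, and 2 of the 4 were lower by 1.2-fold, or 3 without CON replicate 2. The groups overlapped for Dusp3.

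Members of the Ras to ERK pathway, counted together with targets that ERK induces, were split. Of the 36 genes on the list from Ras to ERK, 8 were tested, with a median log2 fold change of -0.07. By 1.2-fold, 10.5% of all named probes tested were lower, while on this list 3 were lower and none was higher. The lower ones were Rasgrf1, a calcium-dependent exchange factor for Ras (-0.42 on the log2 scale, with no overlap), and the ETS factors Etv1 and Etv5, which ERK induces (-0.41 and -0.29 on the log2 scale). Shc1, the adaptor between receptors and Ras, was on the other side, with signals of 11.25 and 11.38 in CRST+RS5 against 11.09 and 11.02 in CON. Etv5 was at -0.17 on the log2 scale without CRST+RS5 replicate 1 and -0.23 without CON replicate 2. The split moved with single arrays. Without CRST+RS5 replicate 1, 2 probes were higher and 2 lower by 1.2-fold. Leaving out the other CRST+RS5 array gave 4 lower and a median of -0.15, and 1 was higher without CON replicate 1.

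Genes of the circadian clock's output lay on the other side of CON. Ciart, a repressor of CLOCK and BMAL1, had signals of 10.49 and 10.63 on the CRST+RS5 arrays, 9.99 and 10.48 on the CRST arrays and 9.53 and 9.87 on the CON arrays. The CRST+RS5 pools were both higher than both naive pools, with a log2 fold change of 0.87 ± 0.16 (SE; limma adjusted p = 0.441). Dbp, a transcription factor driven by CLOCK and BMAL1, read 13.11 and 13.55 in CRST+RS5, 12.90 and 13.27 in CRST and 12.38 and 12.81 in CON, a log2 fold change of 0.73. Neither gene was under 0.51 on the log2 scale without any 1 array.

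Per2, a core repressor of the clock, was measured by 2 tested probes, and both had a log2 fold change of 0.50. One read 11.55 and 11.95 in CRST+RS5 against 11.08 and 11.43 in CON, and the other 11.07 and 11.64 against 10.72 and 10.99. On both, CRST+RS5 replicate 2 was the highest array, and without it they were at 0.30 and 0.21 on the log2 scale. Without CON replicate 1 the first probe was at 0.32, and without CRST+RS5 replicate 1 the second was at 0.79. Nr1d1, the nuclear receptor REV-ERB alpha, read 9.36 and 9.38 in CRST+RS5 against 8.94 and 9.19 in CON, and its log2 fold change of 0.31 was 0.18 without CON replicate 1. All 5 of 5 tested probes of the list, for 4 of its 22 genes, were higher by 1.2-fold, as were 31.0% of all named probes tested. The list's median log2 fold change was 0.50, and 4 or 5 of its probes were higher by as much without each array. The median was 0.30 and 0.79 on the CRST+RS5 arrays, against -0.17 and 0.17 on the CON arrays, each relative to the CON mean. A gene model annotated in the study's probe list as the factor NFIL3/E4BP4, LOC100046232, which shares DNA sites with Dbp as a repressor, was lower: 9.63 and 9.56 in CRST+RS5, 9.80 and 9.72 in CRST and 10.27 and 10.03 in CON, a log2 fold change of -0.55. It was not counted on the list. These transcripts cycle over the day, and the part of the hour of collection was not tested.

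**Figure D2:**
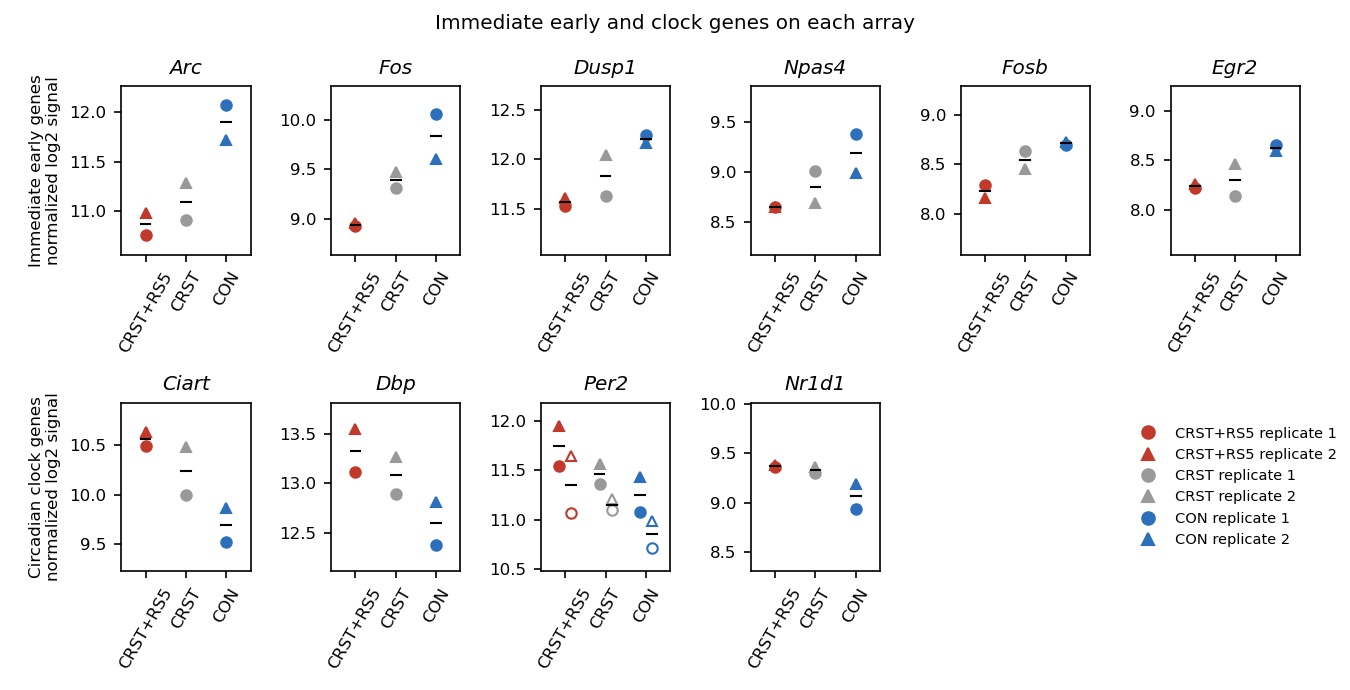
Normalized log2 signal of 6 immediate early genes (top) and 4 clock genes (bottom) on each array, with CRST+RS5 at left, then CRST and CON, and black bars at group means. Filled and open symbols in the Per2 panel are its 2 probes, and every panel spans the same range. Arc and Fos are highest on the CON arrays, while Ciart and Dbp are lowest on them.

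Most named genes of the meninges were above CON. Slc47a1, an exporter of organic cations, had signals of 10.74 and 10.51 on the CRST+RS5 arrays, 8.37 and 9.04 on the CRST arrays and 8.37 and 9.87 on the CON arrays. The CRST+RS5 pools were close to each other while the naive pools were far apart, so its log2 fold change of 1.50 ± 0.41 (SE; limma adjusted p = 0.516) was 0.75 without CON replicate 1 and 2.25 without CON replicate 2. Slc13a4, a sulfate transporter, read 10.97 and 11.04 in CRST+RS5 against 9.46 and 10.31 in CON, a log2 fold change of 1.12, and 0.69 without CON replicate 1. Slc22a6, an organic anion transporter, read 9.57 and 9.39 against 8.36 and 8.81, a log2 fold change of 0.90. Slc13a3, a carrier of dicarboxylates, read 8.72 and 8.80 against 8.04 and 8.18, a log2 fold change of 0.65. For each of the 4 transporters the CRST+RS5 pools agreed more closely than the CON pools and did not overlap with them.

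Secreted products of the same cells followed. Ogn, a small leucine-rich proteoglycan, read 9.78 and 9.80 in CRST+RS5 against 8.19 and 9.18 in CON, a log2 fold change of 1.10 that was 0.61 without CON replicate 1. Dcn, or decorin, a proteoglycan that binds collagen, read 10.81 and 11.07 in CRST+RS5 against 9.64 and 10.26 in CON, a log2 fold change of 0.99. Ptgds, the prostaglandin D synthase of the leptomeninges, read 13.22 and 13.29 in CRST+RS5, 11.32 and 12.04 in CRST and 12.04 and 12.56 in CON, a log2 fold change of 0.96. In these 3 genes all CRST+RS5 pools were above all others of the 6 arrays. Bmp4, a growth factor, and Vasn, a membrane protein that binds TGF-beta, had smaller but more even differences, with log2 fold changes of 0.54 and 0.42 and ranges of 0.46 to 0.62 and 0.38 to 0.46 when each array was left out. Collagen Col1a1 was high on CRST+RS5 replicate 2 above all (8.39 and 9.62 in CRST+RS5 against 7.89 and 8.33 in CON), and its log2 fold change of 0.90 was 0.29 without that array and 1.51 without CRST+RS5 replicate 1.

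Of 62 genes on the list of meningeal fibroblasts, 55 had a name in the study's lists and 52 probes for 51 of them were tested. By 1.2-fold, 38 of the 52 were higher (2.6% of all tested probes and 31.0% of the named ones were) and none was lower, with a median log2 fold change of 0.42, and in 49 the CRST+RS5 arrays lay above both CON arrays. The count was 32 without CON replicate 1, 46 without CON replicate 2 and 39 without CRST+RS5 replicate 2. Among the higher probes, those of Crabp2 and Itgbl1 were detected on both CRST+RS5 arrays and on neither CON array. The detection filter kept them through their higher group, so their place in these counts is not independent of it. Emilin1, an elastic fiber protein, and Mmp14, a membrane protease, had log2 fold changes of -0.18 and -0.02 with overlapping groups. Summed on the linear scale, the 52 probes had a signal of 52854 and 53912 on the CRST+RS5 arrays, 25142 and 32050 on the CRST arrays and 29886 and 39666 on the CON arrays. How much meningeal tissue was dissected with each pool was not measured, and its part in these differences was not tested.

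**Figure D3:**
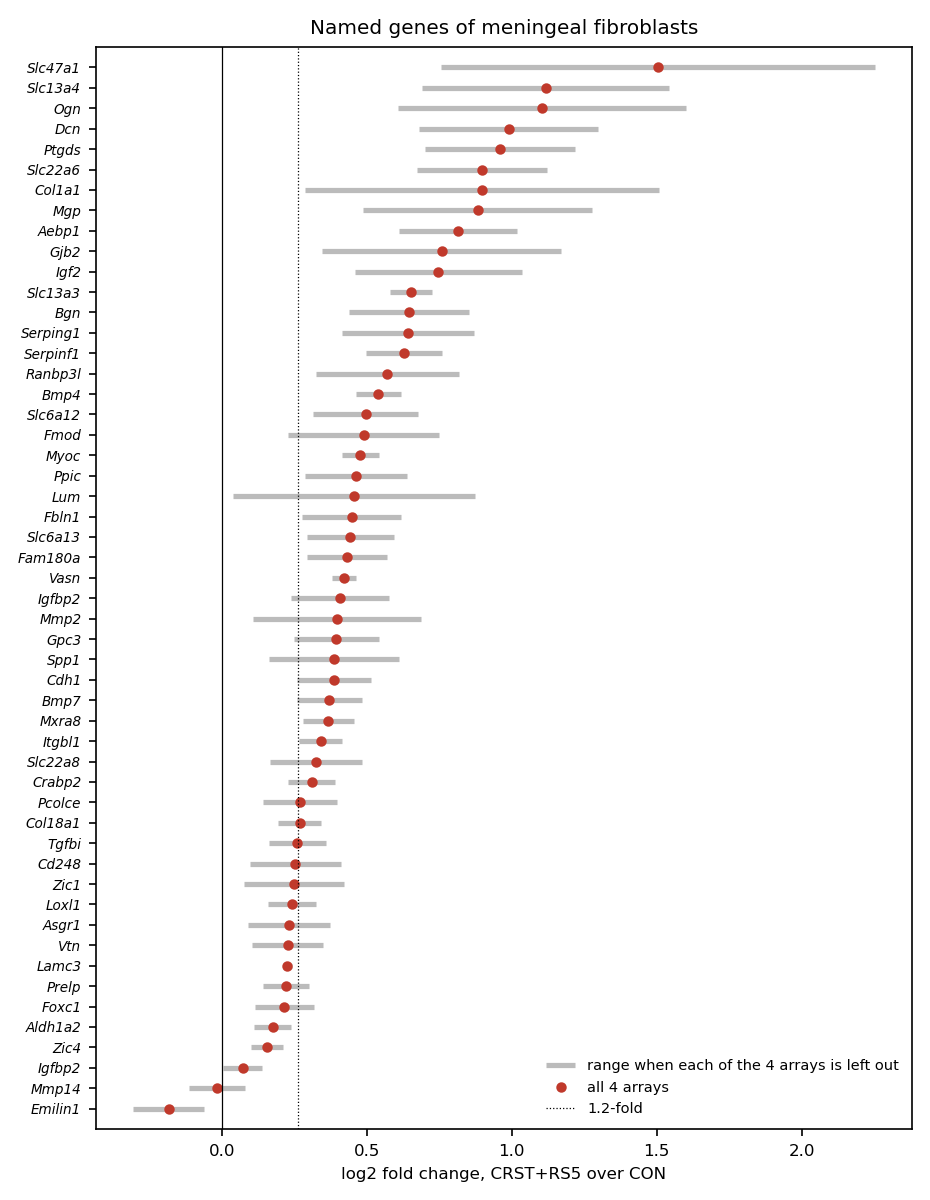
Log2 fold change of CRST+RS5 over CON for the 52 tested probes of the meningeal fibroblast list (red points), with grey bars for the lowest and highest value when each of the 4 arrays is left out and a dotted line at 1.2-fold. Slc47a1 (1.50) has one of the widest bars, from 0.75 to 2.25, and Vasn (0.42) one of the narrowest, from 0.38 to 0.46.

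Genes of vessels were above CON by smaller amounts. Tmem204, a membrane protein of endothelial cells, had signals of 10.36 and 10.35 on the CRST+RS5 arrays, 9.95 and 9.90 on the CRST arrays and 9.88 and 9.91 on the CON arrays. The pools of each group were nearly equal, with a log2 fold change of 0.46 ± 0.07 (SE; limma adjusted p = 0.338) that stayed between 0.45 and 0.48 without each array. Vwf, von Willebrand factor, read 9.47 and 9.41 in CRST+RS5 against 8.99 and 9.06 in CON, and Ptprb, a phosphatase of the endothelial receptor Tie2, read 9.65 and 9.56 against 9.11 and 9.29. Slc2a1, the glucose transporter of the blood-brain barrier, read 11.97 and 12.19 against 11.64 and 11.80, and its log2 fold change of 0.35 was 0.24 without CRST+RS5 replicate 2. Of 15 tested endothelial probes, 11 were higher and 1, Ramp3, was lower by 1.2-fold, with a median log2 fold change of 0.30. Among all named and tested probes, 31.0% were higher by as much. The higher endothelial probes include that of Sox17, detected on both CRST+RS5 arrays and on neither CON array. The detection filter kept it through its higher group. Ramp3, a subunit of adrenomedullin receptors, had overlapping groups and a log2 fold change of -0.26 that was -0.04 without CRST+RS5 replicate 1, -0.49 without CRST+RS5 replicate 2 and -0.21 without CON replicate 2. The higher count was 5 without CON replicate 1 and 13 without CON replicate 2.

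Among genes of contractile vessel cells, Acta2, smooth muscle actin, read 11.95 and 12.44 in CRST+RS5 against 11.29 and 11.66 in CON, a log2 fold change of 0.72, and 0.47 without CRST+RS5 replicate 2. Myh11, smooth muscle myosin, and Tpm2, a tropomyosin, had log2 fold changes of 0.35 and 0.36, and Myh11 was at 0.23 without CRST+RS5 replicate 2. All 12 tested probes of pericytes and smooth muscle had positive differences with no overlap of the groups, 7 of them past 1.2-fold, and the median log2 fold change was 0.30. Over all tested probes, 17.8% lay above CON with no overlap and 2.6% were higher by 1.2-fold. The number past 1.2-fold was 4 without CON replicate 1, 5 without CRST+RS5 replicate 2 and 10 without CON replicate 2. Anpep and Rbpms, which lay within 1.2-fold, were detected on both CRST+RS5 arrays and on neither CON array. The detection filter kept them through their higher group, so their positive differences are not independent of it. Both erythrocyte genes tested, Hba-a1 and Alas2, had groups that overlapped, with log2 fold changes of 0.45 and 0.32 that were 0.06 and 0.09 without CRST+RS5 replicate 2 and 0.16 and 0.15 without CON replicate 1.

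Genes of MHC class II and border macrophages, the macrophages of the meninges and perivascular spaces, were on the same side. Cd74, the invariant chain of MHC class II, read 8.66 and 9.02 in CRST+RS5, 7.98 and 7.86 in CRST and 7.87 and 8.49 in CON. Its log2 fold change of 0.66 was 0.35 without CON replicate 1. H2-Ab1, a class II beta chain, read 8.71 and 8.93 in CRST+RS5 against 8.10 and 8.50 in CON, with 0.52 as its log2 fold change and 0.32 without CON replicate 1. Dab2, an endocytic adaptor of these macrophages, read 9.32 and 9.26 against 8.70 and 8.90. Of the list's 10 tested probes, 8 were higher and none lower by 1.2-fold, with a median log2 fold change of 0.42, and 5 were higher without CON replicate 1. Over all tested probes 2.6% were higher by as much, and 31.0% of the named ones. Among the 8 was Cbr2, which also stands on the olfactory mucosa list and had overlapping groups. It read 7.85 and 10.10 in CRST+RS5 against 7.73 and 7.91 in CON, and its log2 fold change of 1.15 was 0.03 without CRST+RS5 replicate 2. The single tested microglial gene, Siglech, had a log2 fold change of 0.15 with overlapping groups, and -0.04 without CRST+RS5 replicate 1 and -0.07 without CON replicate 1.

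Genes that interferon induces were mostly above CON, with 4 of 8 tested probes higher and 1 lower by 1.2-fold and a median log2 fold change of 0.29. Over all named and tested probes, 31.0% were higher and 10.5% lower by as much. Ifitm2, a membrane protein that blocks virus entry, read 9.03 and 9.12 in CRST+RS5 against 8.70 and 8.78 in CON. Its relative Ifitm3 read 11.07 and 11.28 against 10.60 and 10.94. Ifitm3 is also a gene of endothelial cells, and its log2 fold change of 0.40 was 0.23 without CON replicate 1. The lower member was H2-T23, a nonclassical MHC class I gene, which read 9.94 and 9.93 in CRST+RS5 against 10.33 and 10.14 in CON, and whose log2 fold change of -0.30 was -0.21 without CON replicate 1. The list's count of higher probes was 2 without CRST+RS5 replicate 2 and 7 without CON replicate 2.

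Markers of cortical projection neurons lay below CON in the deep layers and near it in the upper layers. Of 8 tested probes of deep layer projection neurons, 3 were lower and none higher by 1.2-fold, with a median log2 fold change of -0.24. Over all named probes tested, 10.5% were lower by as much. The 3 lower ones here were Oprk1, Rxfp1 and Etv1, and Etv1 also stands on the Ras to ERK list. Oprk1 and Rxfp1 read close to the lowest detected signals of the 4 arrays, which were 7.61 to 7.70. Oprk1, the kappa opioid receptor, read 7.89 and 7.74 in CRST+RS5 against 8.22 and 8.08 in CON, and Rxfp1, a relaxin receptor, read 7.49 and 7.68 against 7.96 and 7.81, where it was detected on 3 of the 4 arrays. Oprk1 was at -0.26 on the log2 scale without CRST+RS5 replicate 2, and Rxfp1 at -0.20 and -0.22 without CRST+RS5 replicate 1 and CON replicate 1. The layer factors Tbr1 and Fezf2 had log2 fold changes of -0.23 and -0.20, and Tle4 of -0.25 with overlapping groups, all inside 1.2-fold. They depended on the CRST+RS5 arrays, with Tbr1 at -0.12, Fezf2 at -0.11 and Tle4 at -0.04 without CRST+RS5 replicate 1. With CRST+RS5 replicate 2 left out they were at -0.35, -0.29 and -0.46, past 1.2-fold, as were Tbr1 and Tle4 without CON replicate 2 (-0.31 and -0.32). The count of lower members was 2 without CON replicate 1 or CRST+RS5 replicate 1, and 5 without either of the other arrays. Of 10 tested probes of upper layer neurons, 1 was higher and 2, those of Inhba and Nptx2, were lower. None was lower without CRST+RS5 replicate 2 or without CON replicate 1, and 2 were higher without CRST+RS5 replicate 1. Otof, the otoferlin gene used as an upper layer marker, read 9.24 on both CRST+RS5 arrays against 8.60 and 9.09 in CON, and its log2 fold change of 0.40 was 0.15 without CON replicate 1 and 0.64 without CON replicate 2. The factor Cux2 read 11.01 and 11.05 in CRST+RS5 against 10.77 and 10.82 in CON. Cortical markers such as Tbr1, Fezf2 and Cux2 were thus well detected on all 4 arrays. A difference between the layer lists was not tested.

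Receptors for GABA, glycine and glutamate had 5 tested probes, and 1 of them was lower by 1.2-fold. That was 1 of 2 probes of Neto1, an auxiliary subunit of kainate receptors, whose arrays overlapped (9.69 and 9.46 in CRST+RS5 against 10.14 and 9.57 in CON). Its log2 fold change of -0.28 was 0.01 without CON replicate 1, -0.17 without CRST+RS5 replicate 2 and -0.57 without CON replicate 2. The list's median was -0.24, with Grm8, a presynaptic glutamate receptor, at -0.24 and Glrb, the glycine receptor beta subunit, at -0.12. The count of lower probes was 0 without CON replicate 1 and 2 when any other of the 4 arrays was left out. Only 4 of the 27 genes on the list had a named and tested probe.

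Tested targets of glucocorticoids and chaperones lay on both sides of CON. Txnip, a thioredoxin inhibitor, read 9.04 and 9.15 in CRST+RS5 against 8.58 and 8.77 in CON, and Sult1a1, a sulfotransferase, read 9.42 and 9.68 against 9.19 on both CON arrays. Sult1a1's log2 fold change of 0.36 was 0.23 without CRST+RS5 replicate 2. On the other side were Dnaja1, a cofactor of Hsp70 (7.74 and 7.79 in CRST+RS5 against 8.04 and 8.20 in CON), and Cryab, a small heat shock protein that oligodendrocytes also express (10.25 and 10.43 against 10.68 and 10.58). Cryab, at -0.29 on the log2 scale, was at -0.20 without CRST+RS5 replicate 1 and -0.24 without CON replicate 1. Of 7 tested probes 2 were higher and 2 lower by 1.2-fold, with a median log2 fold change of -0.19. Over all named probes tested, 31.0% were higher and 10.5% lower by as much, so the higher count was near that share. The lower count was 1 without CON replicate 1, with a median of -0.10, and 4 without CON replicate 2, with a median of -0.26. The higher count was 1 with CRST+RS5 replicate 2 left out.

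Genes of the myelin sheath were mostly within 1.2-fold of CON. In 13 of 31 tested probes both CRST+RS5 arrays lay below both CON arrays, and in none above them. Over all tested probes, those shares were 22.4% and 17.8%. By 1.2-fold, 5 were lower and none higher, against 10.5% and 31.0% of all named probes tested. The median log2 fold change was -0.13, and no probe of the list had an unadjusted p under 0.05 by limma. The lower ones included Ugt8a, which makes galactosylceramide (10.07 and 10.37 in CRST+RS5 against 10.57 and 10.47 in CON), and the tetraspanin Tspan2 (9.89 and 10.14 against 10.19 and 10.44). Both were at -0.30 on the log2 scale, and without CRST+RS5 replicate 1 at -0.15 and -0.18. Ugt8a was at -0.45 without CRST+RS5 replicate 2 and -0.25 without CON replicate 1, and Tspan2 at -0.18 without CON replicate 2. The count of lower probes was 12 without CRST+RS5 replicate 2, and 0 when the other CRST+RS5 array was left out. The list stood apart on another array, CRST replicate 2, where its median was 0.86 above the CON mean, against -0.23 on CRST replicate 1. That array enters the estimate of spread used here, so the lack of small p-values on this list does not measure closeness to CON. Astrocyte genes had 1 of 6 tested probes past 1.2-fold, Gjb2 (log2 fold change 0.76, 0.35 without CON replicate 1 and 1.17 without CON replicate 2), a connexin that meningeal fibroblasts also express and that stands on both lists. The number of astrocyte probes past 1.2-fold was 3 without CRST+RS5 replicate 2 and also 3 without CON replicate 1.

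**Figure D4:**
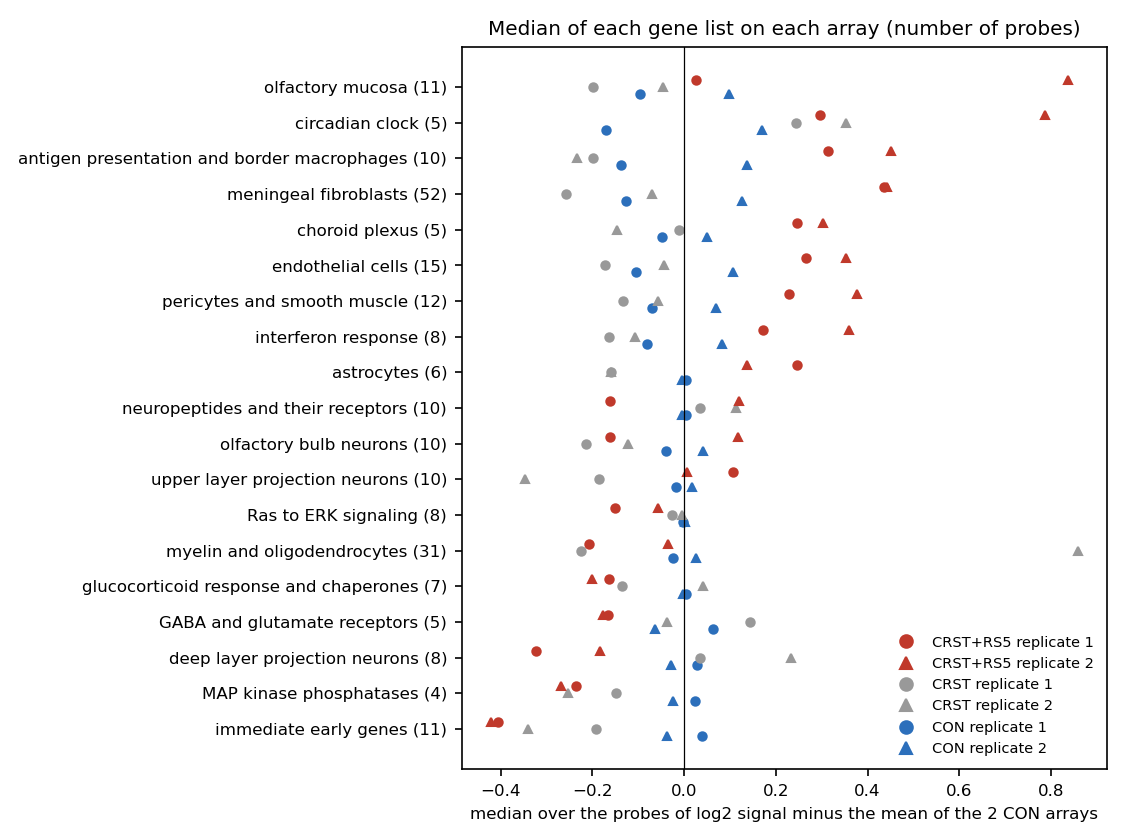
Median over the tested probes of each gene list (number of probes in brackets) of the log2 signal minus the mean of the CON arrays, 1 symbol for each array, with CRST+RS5 in red, CRST in grey and CON in blue. Both CRST+RS5 arrays are below both CON arrays for the immediate early genes (-0.41 and -0.42 against 0.04 and -0.04) and above them for meningeal fibroblasts (0.44 and 0.44 against -0.13 and 0.13), while the olfactory mucosa list is high on CRST+RS5 replicate 2 alone (0.84 against 0.03 on replicate 1).

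A set of genes was high on CRST+RS5 replicate 2 and on no other array. Of the 53 probes at least 2-fold above every other array there, 45 had names, and such probes numbered 1 on CRST+RS5 replicate 1, 0 and 6 on the CRST arrays and 0 on both CON arrays. The highest were Vmo1 (13.38 against 7.44 to 7.89 on the other 5 arrays), the secreted BPI fold protein Bpifb4 (12.83 against 7.70 to 7.89) and the cytochrome P450 Cyp2a5 (12.41 against 7.31 to 8.02). Vmo1 and Cyp2a5 were not among the tested probes, because they were not detected on both arrays of a group. The list of the olfactory mucosa, which held such secreted proteins and xenobiotic-metabolizing enzymes, had 41 named probes, of which 39 were highest on CRST+RS5 replicate 2 and 21 were detected there alone. Over all 25697 probes, 213 were detected on that array alone. Probes had names because the study had listed them from these same arrays, and the gene lists were chosen with earlier results known. The counts for this list are therefore not independent of the signals on that array. Of the 41 probes, 10 and 39 were detected on the CRST+RS5 arrays, 10 on each CRST array, and 12 and 16 on the CON arrays.

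Of the 11 tested probes of that list, 9 were higher by 1.2-fold with all arrays and 3 without CRST+RS5 replicate 2, and the median log2 fold change of 0.61 was 0.03 without it. Inmt, a methyltransferase, read 7.79 and 9.54 in CRST+RS5 against 7.51 and 7.68 in CON, and its log2 fold change of 1.07 was 0.20 without that array and 1.95 without CRST+RS5 replicate 1. Bpifb4 was at 2.53 on the log2 scale, and 0.02 and 5.04 without those arrays in the same order. Fmo1, a flavin monooxygenase, and Gstm2, a glutathione transferase, were also higher on CRST+RS5 replicate 1 (9.55 and 10.01 against 9.05 and 9.30 in CON, and 9.61 and 10.19 against 8.90 and 9.36). Their log2 fold changes of 0.60 and 0.77 were 0.37 and 0.48 without CRST+RS5 replicate 2. The peptide gene Cartpt, expressed in several brain regions, read 8.91 and 11.08 in CRST+RS5 against 9.03 and 9.02 in CON on 1 of its 2 probes. With CRST+RS5 replicate 2 left out, its log2 fold change of 0.97 was -0.12, and that of the other probe, 0.76, was -0.22. With CRST+RS5 replicate 1 left out, they were 2.05 and 1.74. Calb2, or calretinin, an interneuron gene that is also high in the olfactory bulb, read 11.11 and 11.68 against 10.92 and 11.01, and its log2 fold change of 0.43 was 0.15 without that array and 0.72 without CRST+RS5 replicate 1. The list of olfactory bulb neurons, which holds Calb2, was not raised as a whole. Of its 10 tested probes, 2 were higher and 2, those of Etv1 and Cbln4, lower by 1.2-fold, with a median of 0.06. Without CRST+RS5 replicate 2, 0 were higher and 4 lower, with a median of -0.16.

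**Figure D5:**
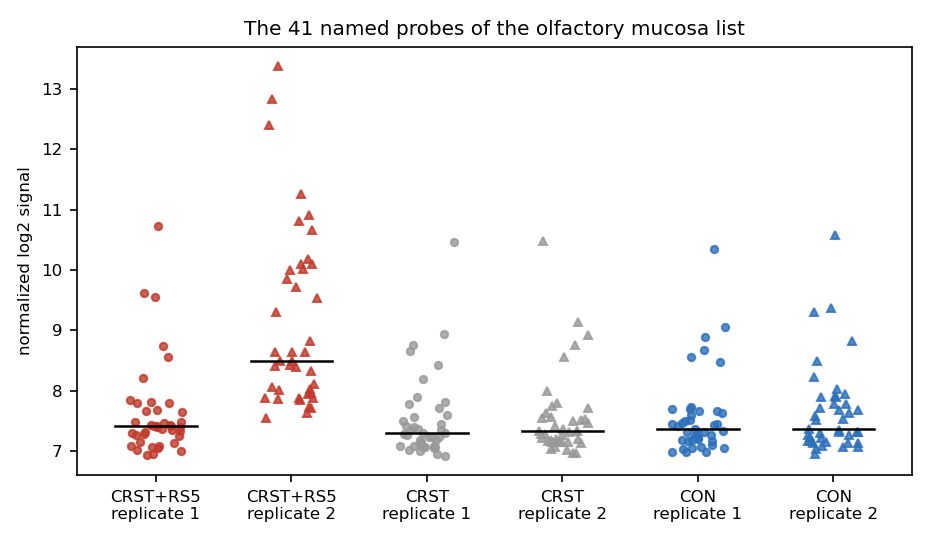
Normalized log2 signal of the 41 named probes of the olfactory mucosa list on each array, with black bars at medians and a small random horizontal spread. The median is 7.41 and 8.49 on the CRST+RS5 arrays, against 7.36 on both CON arrays.

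Without CRST+RS5 replicate 2, 6 of 11 immediate early genes were lower by 1.2-fold. Higher by as much were 4 of 5 clock probes and 39 of 52 meningeal probes. So were 8 of 15 endothelial probes and 6 of 10 probes of MHC class II and border macrophages. Over all 12847 tested probes, 438 were higher and 315 lower without this array, against 334 and 172 with it. The shares of named probes without this array were not counted. The epithelial genes of the choroid plexus had 5 tested probes, of which 3 were higher with all arrays and 2 without this one. The transthyretin gene Ttr, the most abundant transcript of that epithelium, had overlapping groups and a log2 fold change of 0.23 that was 1.35 without CON replicate 1 and -0.89 without CON replicate 2.

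Neuropeptides and their receptors had 10 tested probes, of which 2 were higher, both of Cartpt, and 2 were lower, those of Oprk1 and Rxfp1. The median of 0.11 on the log2 scale was -0.16 without CRST+RS5 replicate 2, where 1 was higher, and 1 was lower without CRST+RS5 replicate 1 or CON replicate 1. Probes without a gene name also had large differences. ILMN_1251449 read 9.47 and 10.06 in CRST+RS5 against 8.76 and 9.07 in CON, and ILMN_3102736 read 10.48 and 10.75 against 9.80 and 9.94. At the low end, ILMN_2658914 read 7.82 and 7.64 in CRST+RS5 against 8.19 and 8.11 in CON. Detection set the limit for others. Ano2, a calcium-activated chloride channel, was detected on both CRST+RS5 arrays (8.05 and 7.97) and on neither CON array (7.43 and 7.33), which gives a level at least 1.30-fold higher in CRST+RS5. This bound sets the CRST+RS5 mean against the lowest detected signal of each CON array or the probe's own signal, whichever is higher. The detection filter kept Ano2 through its higher group, so its difference is not independent of the filter.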

How the data were processed

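RNA pools of the PL were hybridized by the authors to Illumina mouse Ref8 bead arrays. The deposited values are the intensity of each probe and its detection p-value on each array, as exported by the scanner software; the authors also deposited a log2 table of the same arrays, converted and quantile normalized. Intensities were converted to log2 and quantile normalized over all 6 arrays, no column was left out, and probes with a detection p-value under 0.05 on both arrays of CRST+RS5 or of CON were kept. The contrast was fitted with limma 3.58.1 (R 4.3.3, lmFit and eBayes) on all 6 arrays in 3 groups, which share 1 estimate of spread with 3 residual degrees of freedom, with Benjamini-Hochberg adjustment over the 12847 kept probes. The script was tested on simulated data. The number of arrays, 2 pools a group, limits the precision, and no depth applies to arrays.

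Gene names came from the study's own probe lists, 899 probes for 882 genes, 851 of them matched to RefSeq by accession; columns of the authors' comparisons were not used. Genes were named in the text by rule: the 10 largest increases and 10 largest decreases among named probes detected on all 4 arrays with no overlap, up to 4 members of each list by the size of limma's statistic, and the genes the study measured by RT-PCR. Others, such as further members of a list, the genes high on CRST+RS5 replicate 2 and Ano2, were picked with their values in view. The members and gene lists were chosen with earlier results of these data known. A gene can stand on more than 1 list. Alternatives covered scaling, background correction, the authors' table, a pseudocount, other detection filters, leaving out each array, a replicate block, the 4 arrays alone and a ratio of mean signals.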

Additional observations from a re-analysis of the deposited data

How the results depend on the processing

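With arrays scaled to a common median in place of quantile normalization, 217 probes were higher and 430 lower by 1.2-fold, against 334 and 172, and the median of all probes moved to -0.06 on the log2 scale; the split between higher and lower probes thus depends on the scaling. The directions of the 85 probes named by the fixed rule did not turn with it. Background correction by neqc gave 904 higher and 970 lower, and 50 added before log2 left 243 higher and 114 lower. Leaving out 1 array gave 296 to 612 higher and 261 to 458 lower probes, and 0 to 11 past an adjusted p of 0.05. The 11, without CRST+RS5 replicate 1, were probes high on CRST+RS5 replicate 2, among them Bpifb4, Wfdc2, Cbr2, Apoc1, Elovl5, Rbm47 and Sphk1, and the single 1, without CRST+RS5 replicate 2, was C1ql2; the lone array was assumed to vary like the other groups. All other fits had 0 past that threshold, with 943 to 1522 at an unadjusted p under 0.05 outside the fits that leave out an array. Of 846 alternative values of the 85 probes named by the fixed rule, 3 turned direction: Dusp3 (0.001) and 1 probe of Neto1 (0.008) without CON replicate 1, and Cartpt (-0.12) without CRST+RS5 replicate 2. Over all arrays left out in turn, they ranged from -0.33 to 0.001, from -0.57 to 0.008 and from -0.12 to 2.05. Outside those 85, other probes of the text also turned with 1 array left out: Klf2 (-0.07, CON replicate 1), the second Cartpt probe (-0.22, CRST+RS5 replicate 2), Ttr (-0.89, CON replicate 2), Siglech (-0.04, CRST+RS5 replicate 1, and -0.07, CON replicate 1) and Mmp14 (0.08, CRST+RS5 replicate 2, and 0.02, CON replicate 2). Of 68 named probes past 1.2-fold, 26 came under it in at least 1 alternative. No median of a list past 1.2-fold changed sign, but 5 came under 1.2-fold in at least 1 alternative. Without CON replicate 1, the endothelial median of 0.30 was 0.18 and that of pericytes and smooth muscle, 0.30, was 0.22. With CRST+RS5 replicate 2 left out, the interferon median of 0.29 was 0.17, that of the choroid plexus, 0.37, was 0.25, and that of the olfactory mucosa, 0.61, was 0.03. The counts within lists without each array were added after the data were seen.

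The groups were prepared as 2 sets, but neither labels nor methods tie the replicate numbers to the sets. With replicate number as a block, 0 probes passed an adjusted p of 0.05 (smallest 0.0594) and 1335 had an unadjusted p under 0.05; deviations of pools with the same number correlated over probes at 0.05 for CRST+RS5 and CON, 0.26 for CRST+RS5 and CRST and 0.25 for CRST and CON, so the numbers were not used as pairs. With 2 pools a group, signal near background and the spread between pools limit what can be told apart.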
